A study of Mus musculus with 6 samples.

Results

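Heat shock proteins and DNAJ chaperones were followed in mouse cortex at 24 h after traumatic brain injury (TBI). The genes were chosen by symbol alone, from the names that begin with Hspa, Hspb, Hspd, Hspe, Hsph, Hsp90, Dnaja, Dnajb or Dnajc in the deposited gene table. This gave 72 genes among 56826 gene rows, of which 23473 rows carry a gene name and the others are cDNA clone rows of the FANTOM3 collection. The 72 genes comprise 8 small heat shock protein genes (Hspb), 13 HSP70 genes (Hspa), 3 HSP90 genes, 2 genes of the mitochondrial chaperonin HSP60 and HSP10 (Hspd1 and Hspe1), 1 HSP110 gene (Hsph1) and 45 DNAJ genes, divided into 4 Dnaja, 13 Dnajb and 28 Dnajc genes. All mice were wild-type animals of the inbred strain C57BL/6. The control group was normal cortex without injury (3 libraries), and the TBI group was cortex from around the injury at 24 h (3 libraries). The labels give no age, sex, injury device or sham operation, so effects of surgery or anaesthesia cannot be told apart from the injury. Nor do they say whether each library came from a separate animal, so the p-values measure the spread between these libraries, which may be technical.

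Chaperones bind unfolded or partly folded proteins and keep them from aggregating. Small heat shock proteins hold unfolded clients without using ATP, HSP70 proteins bind and release them in an ATP cycle, and DNAJ proteins (also called HSP40 or J-domain proteins) deliver clients to HSP70 and start its ATP hydrolysis. HSP90 completes the folding of kinases and steroid receptors, and nucleotide exchange factors such as HSP110 reset HSP70. After heat or other protein-damaging stress, heat shock factor HSF1 binds heat shock elements, which are inverted repeats of the letters GAA and TTC, and raises the inducible members. In cortex, HSPB1 is well known as a protein of reactive astrocytes and blood vessels, and HSC70 (Hspa8) as an abundant protein of neurons.

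Levels are given as RPKM, the authors' counts scaled by row length and by the total count of a library, and changes as log2 fold changes of TBI over control from edgeR's quasi-likelihood test, ± SE. Because edgeR also scales libraries by TMM factors (mean 0.973 in control, 1.03 in TBI), its log2 fold changes run slightly below the log2 ratio of RPKM values. A gene was called when its p, adjusted by the Benjamini-Hochberg method over 42762 gene rows, was under 0.05. Total counts were 67252519 to 83929814 per library. Of the 72 genes, 68 passed the filter on low counts. The others, Dnajb8, Dnajc22, Dnajc5b and Dnajc5g, had 0 to 10 reads in every library and were not tested.

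Of the 68 genes tested, 13 were called, 6 higher and 7 lower in TBI, which is 19.1% of them beside 17.5% of all gene rows. Rises were called in 9.12% of all gene rows and falls in 8.36%. Among the 16941 tested rows with a gene name, to which all the chaperone genes belong, 26.1% were called, 15.4% higher and 10.7% lower. The share of chaperone genes called thus lay between the shares of these 2 backgrounds. Their median absolute log2 fold change was 0.16, against 0.22 over all rows tested and 0.21 over named rows. The families differed in how their members were distributed. Among small heat shock protein genes 4 of 8 were called (3 higher, 1 lower), among HSP70 genes 5 of 13 (3 higher, 2 lower), among the HSP90 genes 0 of 3, and among DNAJ genes 4 of 41 tested, all lower. The median absolute log2 fold change was 1.15 for small heat shock protein genes, 0.18 for HSP70 genes and 0.12 for DNAJ genes. The value of 1.15 lies in a wide gap between Hspb2 (-0.64, low counts, not called) and Hspb8 (1.65). With signs kept, the median of the small heat shock protein genes was 0.45. It was 0.11 with limma on log2(RPKM + 1) and 0.74 without control replicate 1. No test between families was made. All 4 called changes of at least 2-fold were in small heat shock protein genes. The split between rises and falls stayed at 6 and 7 with RLE size factors, another scaling of the libraries. With library totals in place of TMM it was 12 higher and 4 lower. With limma on log2(RPKM + 1), which changes test, transform and scaling together, it was 11 and 3, and with the FANTOM3 rows left out it was 6 and 12. Without control replicate 3 it was 6 and 2, without control replicate 1 it was 7 and 3, and without TBI replicate 3 it was 5 and 4.

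**Figure D1:**
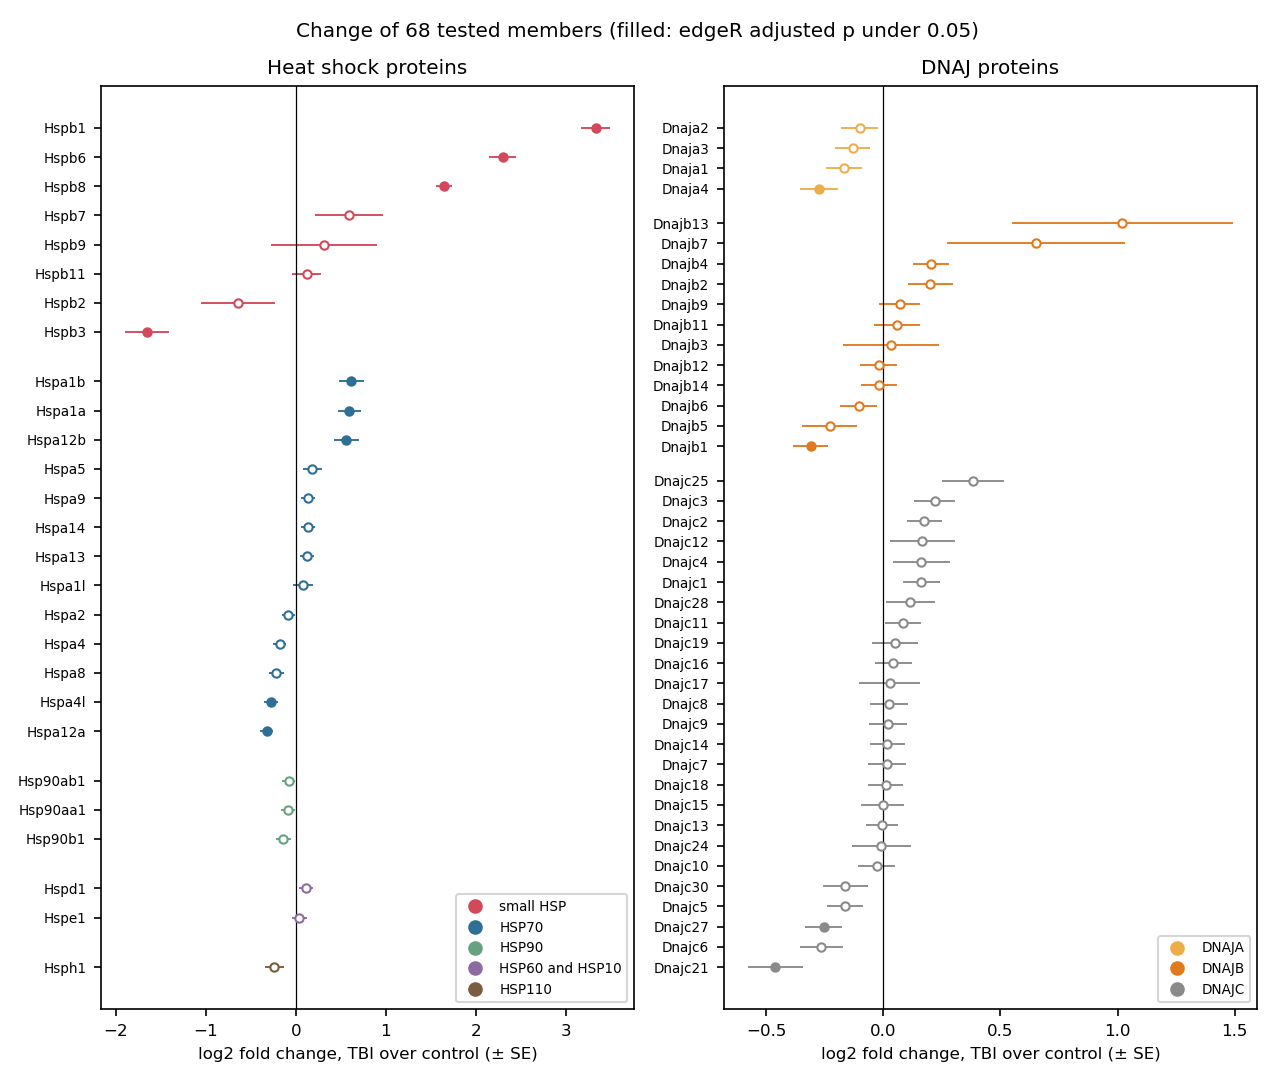
Log2 fold change of TBI over control (horizontal axis) for the 68 tested genes, grouped by family. Points are edgeR estimates, bars are ± SE, and filled points have an adjusted p under 0.05. Hspb1, Hspb6 and Hspb8 lie far to the right, at 3.33, 2.30 and 1.65, Hspb3 lies far to the left at -1.65, and the other called genes lie between -0.46 and 0.62.

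Heat shock elements were looked for in the RefSeq promoter windows (build GRCm38.p6) of 300 bases, from 250 before the transcription start to 50 after it, which were available for 58 of the 72 genes and for all 13 called genes. The motif searched was GAANNTTC, a pair of facing units of a heat shock element. It reads the same on both strands. It was chosen after the windows had been seen. It was found in 14 of the 58 genes (24.1%), compared with 9.04% of 27025 genes with a window. Of the 13 called genes 8 held it. The windows of 5 of these are printed 5′ to 3′ on the strand of the gene, with matches in capitals. They belong to the 4 called small heat shock protein genes and to 1 gene of the inducible HSP70 pair.
Hspb1 (chr5:135887669-135887968, plus strand): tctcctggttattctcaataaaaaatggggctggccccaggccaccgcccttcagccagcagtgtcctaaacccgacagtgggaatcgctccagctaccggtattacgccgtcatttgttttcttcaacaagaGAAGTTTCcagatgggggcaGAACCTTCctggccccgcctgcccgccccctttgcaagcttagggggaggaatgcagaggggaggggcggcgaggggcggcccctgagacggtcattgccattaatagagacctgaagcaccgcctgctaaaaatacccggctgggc
Hspb6 (chr7:30553051-30553350, plus strand): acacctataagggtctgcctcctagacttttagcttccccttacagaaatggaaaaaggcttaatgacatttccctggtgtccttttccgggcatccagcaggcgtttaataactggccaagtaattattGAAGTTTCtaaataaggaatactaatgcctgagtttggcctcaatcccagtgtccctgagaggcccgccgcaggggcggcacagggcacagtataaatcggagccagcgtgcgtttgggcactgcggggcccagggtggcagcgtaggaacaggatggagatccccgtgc
Hspb8 (chr5:116422815-116423114, minus strand): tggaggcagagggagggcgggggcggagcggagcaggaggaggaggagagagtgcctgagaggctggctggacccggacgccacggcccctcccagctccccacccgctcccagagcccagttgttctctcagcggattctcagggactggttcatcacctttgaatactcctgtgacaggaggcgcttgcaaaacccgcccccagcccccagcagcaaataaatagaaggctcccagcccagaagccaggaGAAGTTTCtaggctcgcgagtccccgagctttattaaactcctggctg
Hspb3 (chr13:113663627-113663926, minus strand): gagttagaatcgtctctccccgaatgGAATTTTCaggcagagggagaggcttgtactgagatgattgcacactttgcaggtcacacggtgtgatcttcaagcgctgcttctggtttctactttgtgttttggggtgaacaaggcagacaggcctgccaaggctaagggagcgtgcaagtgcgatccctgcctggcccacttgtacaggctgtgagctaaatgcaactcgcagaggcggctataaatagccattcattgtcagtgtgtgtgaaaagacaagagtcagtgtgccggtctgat
Hspa1a (chr17:34972107-34972406, minus strand): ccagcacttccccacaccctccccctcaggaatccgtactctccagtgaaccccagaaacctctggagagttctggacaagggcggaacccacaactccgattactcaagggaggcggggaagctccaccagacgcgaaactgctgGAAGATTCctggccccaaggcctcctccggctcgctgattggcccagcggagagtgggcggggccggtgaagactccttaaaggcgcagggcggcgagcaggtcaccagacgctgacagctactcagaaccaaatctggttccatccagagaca

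Counted from the transcription start, the first matched base was at -117 and -97 in Hspb1, -120 in Hspb6, +3 in Hspb8, -224 in Hspb3 and -104 in Hspa1a. The RefSeq start used for Hspb6 lies 740 bases from the start of the deposited row. The same letters occurred at -104 in Hspa1b, whose window is identical to that of Hspa1a at 296 of 300 bases, and in Dnaja4 and Dnajc27. The match was thus present in 5 of the 6 genes that rose and in 3 of the 7 that fell. A further 6 genes that were not called or not tested also held it: Dnaja1, Dnajb6, Dnajc5g, Hspd1, Hspe1 and Hsph1. A longer motif with a unit more, GAANNTTCNNGAA in either orientation, which contains the shorter one, was found in 4 of 58 genes (Dnajb6, Hspd1, Hspe1 and Hsph1) and in 0.662% of all genes. None of these 4 was called. The windows of Hspd1 (chr1:55087883-55088182) and Hspe1 (chr1:55087898-55088197) overlap on opposite strands, so their matches are the same letters. The gene counts for both motifs thus include this stretch more than once, and those for the shorter motif also the near-identical windows of Hspa1a and Hspa1b. A match describes the letters of a window and is not a measured binding site.

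Small heat shock protein genes held the largest changes. The genes that rose were Hspb1, which chaperones unfolded proteins and actin filaments, Hspb6, a small heat shock protein best known from smooth muscle, and Hspb8, which works with the co-chaperone BAG3 to send aggregated proteins to autophagy. Hspb3, a partner of HSPB2 known from muscle, fell. Hspb1 (chr5:135887919-135889563) was at 4.58, 4.004 and 5.15 RPKM in the control libraries and at 37.0, 53.4 and 56.1 RPKM in the TBI libraries. The lowest TBI library thus lay far above the highest control library. The mean went from 4.58 ± 0.571 to 48.8 ± 10.3 RPKM (SD, n = 3), and edgeR gave a log2 fold change of 3.33 ± 0.16 with an adjusted p of 6.04e-08, a 10.1-fold rise.

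Hspb8 (chr5:116408495-116422864) was at 5.15, 4.64 and 5.42 RPKM in control and at 16.1, 16.7 and 17.6 RPKM in TBI. In control it stood level with Hspb1, and in TBI it stood well below it, with little spread between libraries in either group. Its log2 fold change was 1.65 ± 0.09 (edgeR adjusted p = 2.16e-07), a 3.13-fold rise. Hspb6 (chr7:30552561-30555439) was at 1.11, 1.38 and 1.03 RPKM in control and at 5.53, 5.57 and 7.16 RPKM in TBI. The groups did not overlap, and TBI replicate 3 was the highest library. The log2 fold change was 2.30 ± 0.15 (edgeR adjusted p = 1.01e-06), a 4.92-fold rise.

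Hspb3 (chr13:113662896-113663676) moved the other way. It was at 2.68, 1.66 and 2.17 RPKM in control and at 0.863, 0.674 and 0.651 RPKM in TBI. Every TBI library was below every control library, at a low level in both groups. Its log2 fold change was -1.65 ± 0.24 (edgeR adjusted p = 5.57e-04). The other 4 small heat shock protein genes were not called. Hspb11, an intraflagellar transport gene that carries the family's symbol, was at 3.39 ± 0.352 RPKM in control and 3.89 ± 0.455 RPKM in TBI, with a log2 fold change of 0.12 ± 0.16 (edgeR adjusted p = 0.688). Hspb2, Hspb7 and Hspb9 were under 0.5 RPKM in every library. Their log2 fold changes were -0.64 ± 0.41, 0.59 ± 0.38 and 0.31 ± 0.59, with edgeR adjusted p of 0.341, 0.336 and 0.784. Hspb2 overlaps Cryab on the opposite strand, whose mean count is 2721 against 21.5 for Hspb2, and the strand setting of the counting is not given in the sources used here, so reads of the pair cannot be told apart.

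The summed level of the 8 small heat shock protein genes was 16.1 to 17.9 RPKM in control and 63.6 to 85.7 RPKM in TBI. This sum includes Hspb11, at 17.4 to 22.4% of it in control and 4.43 to 5.49% in TBI. It leaves out Cryab, a small heat shock protein gene with another symbol, at a mean of 31.4 RPKM in control and 31.65 RPKM in TBI. Sums and shares given here thus hold for the Hspb symbols only. The make-up of this sum changed with its size. Hspb1 held 24.9 to 28.8% of it in control and 58.2 to 65.5% in TBI. Hspb8 went from 28.9 to 30.3% in control to 20.5 to 25.3% in TBI, and Hspb3 from 10.3 to 15.6% to 0.760 to 1.36%. The family's calls, 3 higher and 1 lower, were the same in number under every alternative tried.

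**Figure D2:**
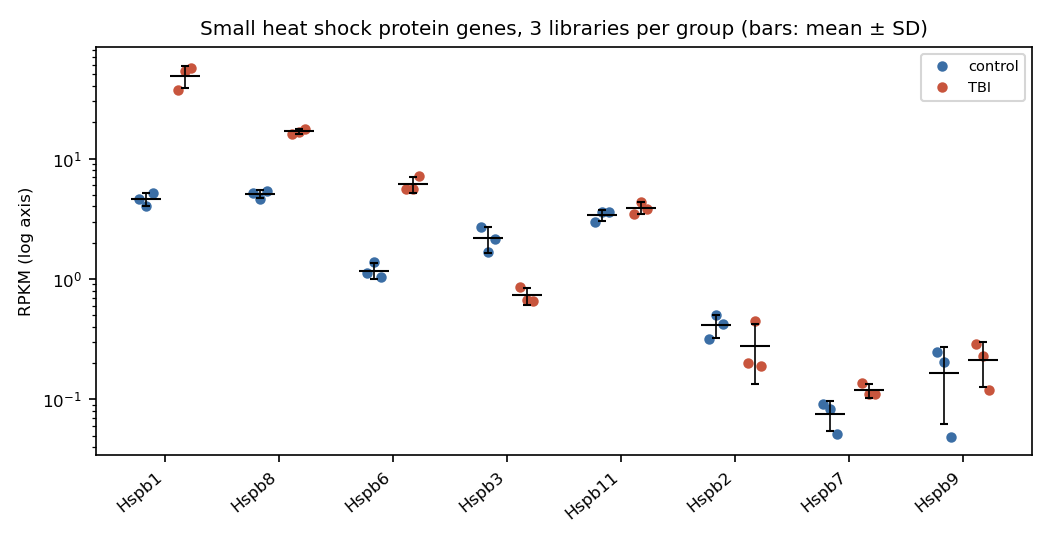
RPKM of the 8 small heat shock protein genes (log axis), with 1 point per library, 3 control and 3 TBI, and bars for the mean ± SD. Hspb1, Hspb8 and Hspb6 are higher in every TBI library than in any control library, Hspb3 is lower, and Hspb2 and Hspb9, at low levels, overlap between groups.

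In tissue pieces of mixed cells, more or fewer cells of a type and more or less RNA per cell cannot be told apart, and lists of marker genes moved between the same groups. Neuronal and astrocyte markers were abundant in all libraries of the labelled cortex. Of 10 neuronal markers 5 were lower and 0 higher in TBI, and their summed level went from 1718 to 1855 RPKM in control to 1428 to 1564 RPKM in TBI. Of 9 astrocyte markers 4 were higher and 2 lower, with sums of 656 to 712 RPKM and 766 to 816 RPKM. Within them Gfap, the intermediate filament of reactive astrocytes, went from 21.2 to 197 RPKM. The astrocyte markers did not move together. Slc1a2 went from 194 to 147 RPKM and Gja1 from 57.7 to 37.7 RPKM, both called lower. The median log2 fold change of the 9 was -0.099, with 4 above 0 and 5 below. Of 10 microglia and macrophage markers 7 were higher and 2 lower, with sums of 51.9 to 54.3 RPKM and 83.2 to 102 RPKM. Of 6 tested neutrophil markers 5 were higher, with sums of 1.50 to 3.54 RPKM and 36.8 to 107 RPKM, while Mpo and Elane, made by neutrophil precursors, stayed under 0.1 RPKM. Of 8 endothelial markers 4 were higher, with sums of 40.5 to 45.6 RPKM and 61.4 to 63.4 RPKM. Smooth muscle and pericyte markers were higher in 2 and lower in 1 of 9, with sums of 43.6 to 48.8 RPKM and 49.5 to 50.9 RPKM. Of 8 ependymal and choroid plexus markers 4 were higher, with sums of 91.6 to 171 RPKM and 260 to 624 RPKM that were led by Ttr. Skeletal muscle markers summed to 4.22 to 5.28 RPKM and 4.56 to 4.98 RPKM, with 1 of 6 tested higher (Des, shared with the smooth muscle list). Of 9 oligodendrocyte markers 1 was higher, with sums of 578 to 1031 RPKM and 695 to 1107 RPKM, and of 3 tested testis germ cell markers 1, with sums of 5.98 to 8.0 RPKM and 6.28 to 7.67 RPKM. Ly6g and Dnah11 were not analysed here. No listed marker in the table had 0 reads in all libraries. The part of these cell types in the chaperone results was not tested.

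The HSP70 family was dominated by members that were not called. Hspa8 encodes the constitutive cytosolic HSC70, which also strips clathrin coats from synaptic vesicles, and held 74.9 to 75.0% of the family's summed RPKM in control and 71.2 to 72.3% in TBI. The genes that rose were the low-level inducible pair Hspa1a and Hspa1b and the divergent Hspa12b, and those that fell were Hspa12a and Hspa4l. Summed over the 13 genes, the level was 1209 to 1394 RPKM in control and 1214 to 1266 RPKM in TBI. The median log2 fold change was 0.13, with 8 estimates above 0 and 5 below.

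Hspa1a and Hspa1b encode the stress-inducible cytosolic HSP70 from near-identical neighbouring copies, so reads may have been divided between them. Hspa1a (chr17:34969359-34972156) was at 2.60, 2.28 and 2.07 RPKM in control and at 4.24, 3.44 and 3.40 RPKM in TBI. Hspa1b (chr17:34956429-34959238) was at 2.43, 2.39 and 2.60 RPKM in control and at 4.86, 3.17 and 3.998 RPKM in TBI. In both genes every TBI library was above every control library, and TBI replicate 1 was the highest. The log2 fold change was 0.59 ± 0.13 for Hspa1a (edgeR adjusted p = 0.00626), a 1.51-fold rise. It was 0.62 ± 0.14 for Hspa1b (edgeR adjusted p = 0.00952), a 1.53-fold rise. With the counts of the pair summed into 1 row it was 0.61 ± 0.11 (edgeR adjusted p = 0.00288). Without TBI replicate 1, Hspa1b was at 0.45 and no longer called (edgeR adjusted p = 0.0514). Both remained at a few RPKM, far below Hspa8.

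Hspa12b, a distant HSP70 relative known from blood vessel endothelium, was at 1.14, 1.04 and 1.11 RPKM in control and at 1.55, 1.64 and 1.96 RPKM in TBI (chr2:131127412-131145988). Its log2 fold change was 0.56 ± 0.13 (edgeR adjusted p = 0.0115). Without TBI replicate 3, the highest library, it was 0.45 and not called (edgeR adjusted p = 0.0570). Its neighbour in sequence, Hspa12a, was at 42.9, 39.2 and 42.4 RPKM in control and at 34.2, 35.9 and 35.1 RPKM in TBI (chr19:58795750-58943667). The TBI libraries of Hspa12a lay below all control libraries, with a log2 fold change of -0.32 ± 0.08 (edgeR adjusted p = 0.00993). Hspa12a and Hspa12b thus differed in direction, and per length Hspa12a stood far above Hspa12b in every library.

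Hspa4l and Hspa4 are HSP110-type relatives that act as nucleotide exchange factors for HSP70. Hspa4l (chr3:40744370-40791047) was at 37.2, 34.9 and 39.8 RPKM in control and at 33.0, 32.5 and 32.0 RPKM in TBI. The groups did not overlap, but the gap was small, and the log2 fold change was -0.28 ± 0.08 (edgeR adjusted p = 0.0256). Its call was lost without control replicate 1 (adjusted p = 0.0782 by edgeR), without control replicate 3 (0.117), without TBI replicate 1 (0.0550) and without TBI replicate 3 (0.0607). It was also lost with library totals (edgeR adjusted p = 0.0673) and with limma (adjusted p = 0.0667). Hspa4 was at 46.4 ± 2.14 RPKM in control and 43.3 ± 1.10 RPKM in TBI, with a log2 fold change of -0.18 ± 0.07. It was not called (edgeR adjusted p = 0.117). Its groups did not overlap either, by a small gap, and it was called under at least 1 alternative.

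Hspa8 was at 967, 905 and 1044 RPKM in control and at 914, 879.9 and 863 RPKM in TBI. The groups overlapped, and the log2 fold change was -0.22 ± 0.08 (edgeR adjusted p = 0.104). It was called lower without control replicate 2 (-0.28, edgeR adjusted p = 0.0171) and with the FANTOM3 rows left out (-0.23, edgeR adjusted p = 0.0228). Hspa5 encodes BiP, the HSP70 of the endoplasmic reticulum, and is raised in many cells when proteins fail to fold there. It was at 101, 89.5 and 119 RPKM in control and at 127, 112 and 134 RPKM in TBI, so the groups overlapped. Its log2 fold change was 0.18 ± 0.11 (edgeR adjusted p = 0.300). Hspa9, the mitochondrial HSP70, was at 49.2, 47.1 and 52.3 RPKM in control and at 59.0, 58.7 and 55.1 RPKM in TBI. These groups did not overlap, and the log2 fold change of 0.14 ± 0.08 was not called under TMM (edgeR adjusted p = 0.267). With library totals it was 0.22 and called (edgeR adjusted p = 0.0449), as it was with limma (adjusted p = 0.0438). The remaining HSP70 genes, Hspa2, Hspa13, Hspa14 and Hspa1l, had log2 fold changes of -0.08, 0.13, 0.13 and 0.08, and none was called.

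**Figure D3:**
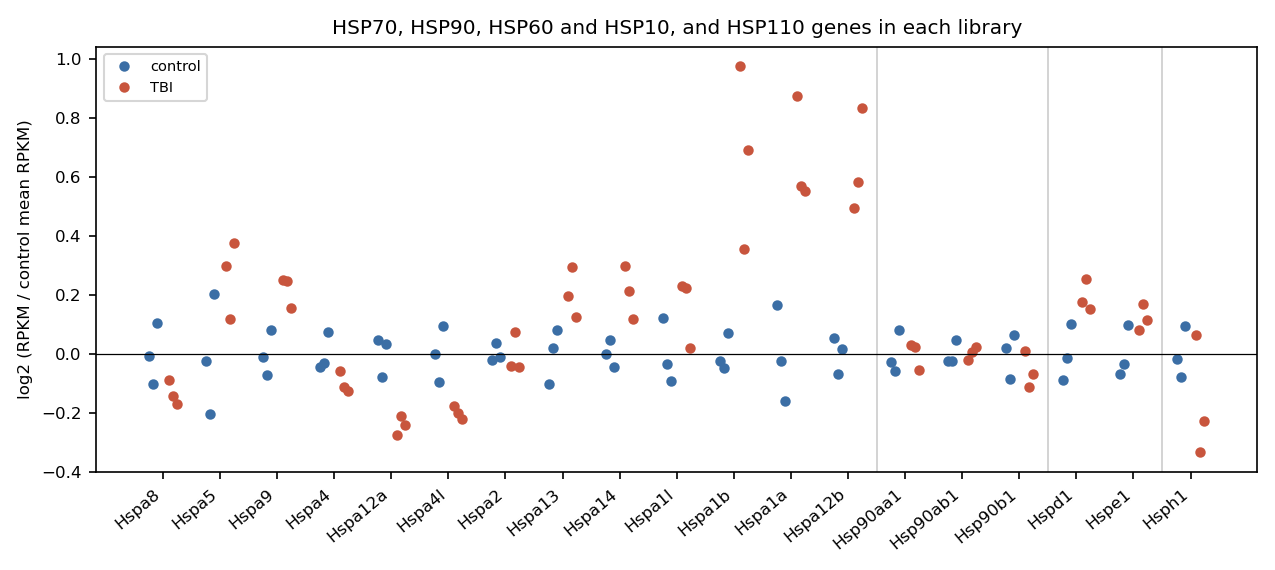
RPKM of each library divided by the gene's control mean, on a log2 axis, for the HSP70, HSP90, HSP60 and HSP10, and HSP110 genes. Each point is 1 library (3 control, 3 TBI), and vertical lines separate the families. Hspa1a, Hspa1b and Hspa12b stand above their control libraries, Hspa12a and Hspa4l below them, and the HSP90 genes overlap between groups.

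The HSP90 genes were among the highest in level, and none was called. Hsp90aa1, the inducible cytosolic form, was at 389.7, 382 and 420.4 RPKM in control and at 405, 403 and 382 RPKM in TBI. Hsp90ab1, the constitutive cytosolic form, was at 301 ± 8.76 RPKM in control and at 301 ± 4.50 RPKM in TBI. Hsp90b1, or GRP94 of the endoplasmic reticulum, was at 105 ± 5.53 and 101 ± 4.36 RPKM (SD, n = 3). The libraries of the groups overlapped in all 3 genes. The log2 fold changes were -0.08 ± 0.08, -0.08 ± 0.07 and -0.14 ± 0.08, with edgeR adjusted p of 0.549, 0.529 and 0.280. None had an unadjusted p under 0.05, and DESeq2 called 0 as well. Under library totals and limma the sign of Hsp90ab1, and under limma that of Hsp90aa1, changed to a value near 0.

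Hspd1 and Hspe1 encode the chaperonin HSP60 and its lid HSP10, lie head to head on chromosome 1 and fold proteins in mitochondria. Hspd1 was at 48.3 ± 3.21 RPKM in control and 55.2 ± 2.05 RPKM in TBI, without overlap between libraries, and Hspe1 at 37.3 ± 2.31 and 40.6 ± 1.24 RPKM, with overlap. Their log2 fold changes were 0.11 ± 0.08 and 0.04 ± 0.08, and neither was called (edgeR adjusted p = 0.362 and 0.789). Hsph1, the HSP110 nucleotide exchange factor, was at 53.5, 51.2 and 57.8 RPKM in control and at 56.6, 43.0 and 46.3 RPKM in TBI. TBI replicate 1 was alone among the TBI libraries in lying within the control range. The log2 fold change was -0.24 ± 0.10 (edgeR adjusted p = 0.145). Without that library it was -0.37 and called (edgeR adjusted p = 0.0240).

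In the order of levels, none of the 10 tested genes with the highest mean RPKM, all above 51 RPKM and led by Hspa8, Hsp90aa1, Hsp90ab1, Hspa5 and Hsp90b1, was called, and their log2 fold changes ran from -0.26 to 0.18. With 7 of these 10 below 0, the summed level of all 72 genes was 2813 to 3130 RPKM in control and 2912 to 3010 RPKM in TBI. The added RPKM of Hspb1 was therefore small beside a total led by Hspa8, Hsp90aa1 and Hsp90ab1. By mean level over all libraries Hspb1 was the 21st of the 72 genes.

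**Figure D4:**
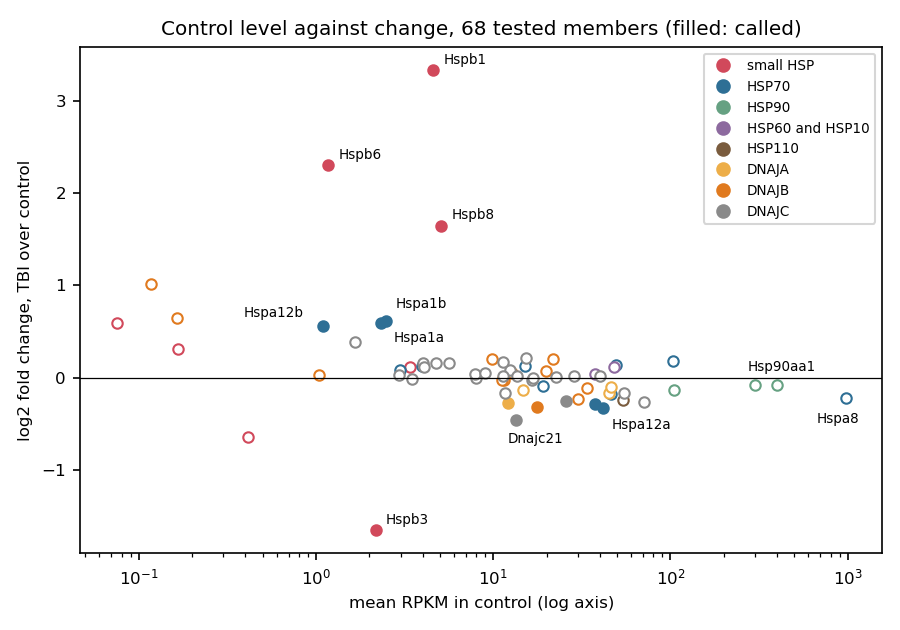
Mean control RPKM (log axis) against log2 fold change of TBI over control for the 68 tested genes, coloured by family. Filled points have an edgeR adjusted p under 0.05. The 4 called small heat shock protein genes lie between 1 and 6 RPKM in control, and genes above 51 RPKM lie close to 0 on the vertical axis.

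Of the 41 DNAJ genes tested, 4 were called, all lower: Dnajb1, Dnaja4, Dnajc21 and Dnajc27. This share of 9.76% was near the share of falls in the backgrounds, 8.36% of all gene rows and 10.7% of named rows. As a share called in either direction it was below the 17.5% of all gene rows and the 26.1% of named rows. Rises were called in 9.12% of all gene rows and 15.4% of named rows. The other 37 were not called, and the median log2 fold change over the 41 was 0.02. No DNAJ gene was called higher by edgeR, while 4 had an unadjusted p under 0.05 with a positive sign, and DESeq2 called 0. Dnajb1 encodes the main stress-inducible cytosolic HSP40. It was at 17.3, 17.7 and 17.9 RPKM in control and at 15.1, 15.8 and 14.3 RPKM in TBI (chr8:83608175-83611903). All TBI libraries were below all control libraries. Its log2 fold change was -0.31 ± 0.07 (edgeR adjusted p = 0.0117), opposite in sign to that of Hspa1a and Hspa1b. Without control replicate 3 the adjusted p from edgeR was 0.0520.

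Dnaja4, a cytosolic type I DNAJ, was at 12.5, 11.5 and 12.5 RPKM in control and at 11.4, 10.3 and 10.3 RPKM in TBI (chr9:54698852-54716317). The highest TBI library came close to the lowest control library, and the log2 fold change was -0.27 ± 0.08 (edgeR adjusted p = 0.0379). Dnajc21, which serves ribosome assembly in the nucleolus, was at 14.5, 10.9 and 14.9 RPKM in control and at 10.1, 10.4 and 10.6 RPKM in TBI (chr15:10446763-10470516). Control replicate 2 lay near the TBI libraries and away from the other controls. The log2 fold change was -0.46 ± 0.12 (edgeR adjusted p = 0.0162). Dnajc27, a Rab-like GTPase with a J domain, averaged 25.6 ± 1.57 RPKM in control and 22.7 ± 0.805 RPKM in TBI (chr12:4082566-4110612), with a log2 fold change of -0.26 ± 0.08 (edgeR adjusted p = 0.0402). Each of these 4 calls was lost in the absence of at least 1 library. Without control replicate 3 the edgeR adjusted p was 0.130 for Dnaja4, 0.0827 for Dnajc21 and 0.166 for Dnajc27. Dnaja4 and Dnajc27 also lost their calls with library totals (edgeR adjusted p = 0.102 and 0.111), and these 2 and Dnajc21 with limma (adjusted p = 0.111, 0.112 and 0.0572 for Dnaja4, Dnajc27 and Dnajc21). The number of DNAJ falls was 0 without control replicate 3, 1 without control replicate 1, and 2 without TBI replicate 2 or TBI replicate 3.

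The 5 DNAJ genes with the highest levels were not called. Dnajc6 encodes auxilin, the neuronal partner of HSC70 in clathrin uncoating, and was at 75.0, 63.1 and 75.4 RPKM in control and at 65.1, 62.7 and 60.3 RPKM in TBI. Control replicate 2 lay within the TBI range, and the log2 fold change was -0.26 ± 0.09 (edgeR adjusted p = 0.0662). Without that library it was -0.36 and called (edgeR adjusted p = 0.00354), and it was also called with DESeq2 (adjusted p = 0.0344), with no filter on low counts (edgeR adjusted p = 0.0462) and with the FANTOM3 rows left out (edgeR adjusted p = 0.0234). Dnajc5 encodes cysteine string protein, which guards SNAP25 on synaptic vesicles, and was at 54.5 ± 1.99 RPKM in control and 51.4 ± 2.37 RPKM in TBI (log2 fold change -0.16, edgeR adjusted p = 0.174). The cytosolic Dnaja1 and Dnaja2 and the splicing-associated Dnajc8 had log2 fold changes of -0.17, -0.10 and 0.02.

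With library totals 5 DNAJ genes were higher and 2 lower, and with limma 4 and 1, whereas with the FANTOM3 rows left out 0 were higher and 7 lower. The 5 higher with library totals are named after their values were seen. They are Dnajb2, which binds ubiquitin and is known from neurons, the cytosolic Dnajb4, Dnajc2, which sits on ribosomes with HSPA14, Dnajc3, which serves BiP in the endoplasmic reticulum, and Dnajc25. Their log2 fold changes under TMM were 0.20, 0.20, 0.17, 0.22 and 0.38, with edgeR adjusted p between 0.0706 and 0.188. In all 5 genes the TBI libraries lay above the control libraries in RPKM. Because RPKM is scaled by the same library totals that picked these genes, this gap is no separate evidence of a rise. Dnajc3 was at 15.3, 13.7 and 16.9 RPKM in control and at 19.3, 18.4 and 18.8 RPKM in TBI. Other DNAJ partners of BiP, also named after their values were seen, were Dnajb9 with a log2 fold change of 0.07 and Dnajb11 with 0.06, and both overlapped between groups. Library totals raised the median log2 fold change of all rows from 0.0055 to 0.085. The widest DNAJ estimate was that of Dnajb13, a gene of motile cilia, at 1.02 ± 0.47 from 6 to 24 reads per library, and it was not called (edgeR adjusted p = 0.173).

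An endoplasmic reticulum stress element, searched as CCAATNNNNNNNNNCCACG in either orientation, was present in the promoter windows of Hspa5, Hsp90b1 and Dnajc3, 3 of the 58 genes, and in 0.137% of all genes with a window. None of these 3 was called.

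The 72 genes have 103 transcript rows, of which 97 were tested over 49090 rows, and 6 were called higher and 11 lower. Among all transcript rows 10.1% were called higher and 9.81% lower. Rows of the same gene share reads and are not independent. For 53 of the 72 genes there is a single transcript row, so agreement with the gene row is no separate evidence. For 99 transcripts, counting those not tested like their gene, the call was that of the gene. The other 4 were all transcripts of Dnajc6, each lower with a log2 fold change of -0.27 and an edgeR adjusted p of 0.042 to 0.044, while the gene row was not called. These calls were close to the threshold. With RLE size factors none of the 4 Dnajc6 transcripts was called (edgeR adjusted p of 0.0546 to 0.0559), nor with library totals, with limma, or without any of the libraries except control replicate 2. The number of falling transcripts of all 72 genes was 7 with RLE size factors, 4 with library totals, 3 with limma, 3 without control replicate 1 or control replicate 3, 7 without TBI replicate 1, 6 without TBI replicate 2 and 5 without TBI replicate 3. The number of rising transcripts was 15 with library totals and 14 with limma. The Hspb1 transcript went from 3.45 to 37.0 RPKM.

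Genes that work with these chaperones but bear other symbols were followed as 6 lists of 58 genes in all, of which 56 were tested. Of these, 4 were called higher and 1 lower. The share called was 8.93%, below the 17.5% of all gene rows and the 26.1% of named rows. With library totals or limma 8 were higher, and 2 were lower with the FANTOM3 rows left out and 4 without control replicate 2. Bag3, the co-chaperone that binds HSPB8 and HSP70 and is a target of HSF1, was at 0.424, 0.536 and 0.731 RPKM in control and at 2.18, 1.87 and 2.23 RPKM in TBI. All TBI libraries stood well above the controls, with a log2 fold change of 1.80 ± 0.19 (edgeR adjusted p = 3.4e-05), beside 1.65 for Hspb8. Serpinh1, the collagen chaperone HSP47, averaged 7.03 ± 1.02 RPKM in control and 18.2 ± 3.39 RPKM in TBI, a log2 rise of 1.29 ± 0.14 (edgeR adjusted p = 4.9e-05). Fkbp5, an HSP90 co-chaperone of the glucocorticoid receptor, averaged 7.14 ± 1.62 RPKM in control and 12.0 ± 0.639 RPKM in TBI, a log2 rise of 0.67 ± 0.13 (edgeR adjusted p = 0.00343). It was the only call among the 16 genes listed as HSP90 co-chaperones, of which 12 had log2 fold changes below 0. That list also holds Trap1, an HSP90 itself that the symbol rule leaves out, with a log2 fold change of 0.02 (not called).

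Sgtb, a co-chaperone of HSP70 known from neurons, was at 57.1, 51.3 and 54.0 RPKM in control and at 38.0, 38.2 and 33.9 RPKM in TBI. It was the called fall among the partner genes, with a log2 fold change of -0.64 ± 0.08 (edgeR adjusted p = 1.97e-04), larger in size than any fall among the HSP70 or DNAJ genes. Of the 16 genes listed as HSP70 co-chaperones 14 were not called. The 8 tested subunits of the cytosolic chaperonin CCT all had log2 fold changes above 0, with a median of 0.13, and 1 of them was called. This was Cct3, which averaged 26.9 ± 1.58 RPKM in control and 35.0 ± 0.756 RPKM in TBI, a log2 rise of 0.30 ± 0.08 (edgeR adjusted p = 0.0180). Its call was lost without control replicate 1 (edgeR adjusted p = 0.0522) and without TBI replicate 1 (edgeR adjusted p = 0.0609).

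The heat shock factors themselves were not called, 0 of 4 by edgeR, with 0 at an unadjusted p under 0.05. Hsf1 was at 5.29 ± 0.389 RPKM in control and 5.13 ± 0.397 RPKM in TBI, and Hsf2 at 7.68 ± 0.678 and 7.76 ± 0.545 RPKM. The activity of HSF1 is set largely by its state as a protein, which RNA levels do not show. Cryab, alpha-B crystallin, is a small heat shock protein by sequence that the symbol rule leaves out. It was at 35.9, 25.6 and 32.9 RPKM in control and at 30.6, 30.6 and 33.7 RPKM in TBI, with a log2 fold change of -0.07 ± 0.12 (edgeR adjusted p = 0.742). Its libraries overlapped, and in control its mean of 31.4 RPKM was above that of every small heat shock protein gene with an Hspb symbol. Among 4 further genes with J domains, 0 were called and 1 had an unadjusted p under 0.05.

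**Figure D5:**
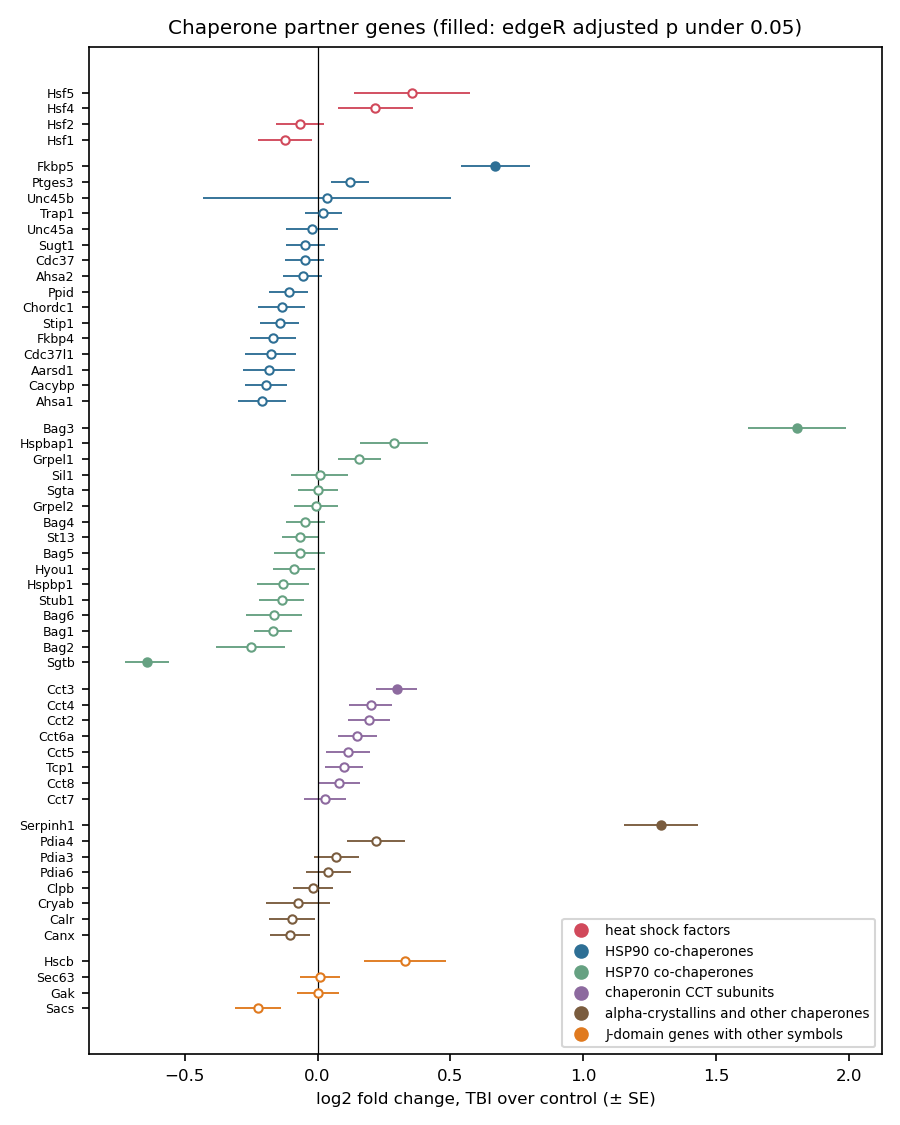
Log2 fold change of TBI over control, ± SE, for the 56 tested partner genes in 6 lists. Filled points have an edgeR adjusted p under 0.05. Bag3, Serpinh1, Fkbp5 and Cct3 lie to the right at 1.80, 1.29, 0.67 and 0.30, Sgtb lies to the left at -0.64, and all 8 tested CCT subunits lie to the right of 0.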

How the data were processed

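RNA was sequenced from 6 cortex libraries, 3 control and 3 TBI. Libraries were made from fragmented total RNA with a deoxy-UTP strand mark, per the labels' protocols. The submitters' processing notes name TopHat2 and the build mm10, and how reads were counted, and on which strand, is not given in the sources used here. The authors deposited raw counts and RPKM values for each library, per the file headers, over 56826 gene rows and 64529 transcript rows. The deposited RPKM followed from the count, the row length and the library total to a relative spread of 6.06e-06. Rows overlap, so a read can be counted in several, and column totals overstate depth: 16 of the 72 genes overlap another named row. SE and SD cover the spread between libraries only.

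Counts were tested with edgeR 4.0.16 in R 4.3.3 (filterByExpr with a minimum count of 10 and minimum total of 15, TMM, quasi-likelihood F test, two-sided, no block, Benjamini-Hochberg adjustment over all rows, separately for genes and transcripts). SE is the absolute log2 fold change divided by the square root of F. With counts simulated for TBI against control over 42762 gene rows, it found 64 of 100 rows set to a log2 change of 1, and 91 of 100 set to 2, with 22 false among 177 calls. On 49090 simulated transcript rows it found 63 and 87 of 100, with 31 false among 181. Alternatives were RLE size factors, library totals (added after seeing the data), no filter on low counts, DESeq2 1.42.0, limma 3.58.1 on log2(RPKM + 1), FANTOM3 rows left out, a replicate block, the Hspa1a and Hspa1b counts summed, and each library left out. Named genes were every tested gene outside DNAJ, each called DNAJ gene, the 5 DNAJ genes highest in RPKM, the called partners, Hsf1 and Hsf2. Genes outside this rule are Cryab and those marked in the text. The 72 genes, the lists and the rules were chosen with earlier results of these data known. Promoter windows come from RefSeq for GRCm38.p6, and motif matches were counted on both strands.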

Additional observations from a re-analysis of the deposited data

How the results depend on the processing

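Of the 13 called genes, 6 kept their call under every alternative run (Hspb1, Hspb3, Hspb6, Hspb8, Hspa12a and Hspa1a), and 7 lost it under at least 1 (Hspa12b, Hspa1b, Hspa4l, Dnaja4, Dnajb1, Dnajc21 and Dnajc27). The cause was not tested. With library totals, which move the median of all rows to 0.085, the counts called higher and lower were 12 and 4 for the 72 genes, 15 and 4 for their transcripts, 5 and 2 for DNAJ genes, with 1 HSP70 gene lower and 8 partners higher. With limma on log2(RPKM + 1) they were 11 and 3, 14 and 3, 4 and 1, with 1 HSP70 gene lower and 8 partners higher. With FANTOM3 rows left out 12 genes were lower, 4 of them HSP70 and 7 DNAJ genes, as were 2 partners. RLE size factors gave 7 lower transcripts against 11. Leaving out 1 library gave 5 to 7 genes higher and 2 to 9 lower, 5 to 7 transcripts higher and 3 to 12 lower, 3 to 4 partners higher and 1 to 4 lower (4 without control replicate 2), 2 to 3 HSP70 genes higher and 1 to 3 lower, 0 to 1 HSP110 gene lower, and 0 to 1 DNAJ genes higher and 0 to 5 lower. Leaving out a library leaves 2 in its group, so these fits rest on fewer samples than the main one. How far that moved the counts was not tested. Signs under the alternatives were compared for the named genes only, so other genes may also have reversed. Signs reversed in genes that were not called: Hspb9 without control replicate 3 (-0.15; up to 0.71 without another library), Hsp90aa1 with limma (0.000187), Hsp90ab1 with library totals (0.00302) and limma (0.00303), Dnajc8 without control replicate 2 (-0.0053), TBI replicate 1 (-0.0063) or TBI replicate 2 (-0.027; up to 0.084), Dnajb9 without control replicate 1 (-0.000658) or TBI replicate 3 (-0.0014; up to 0.13), Dnajb11 without control replicate 2 (-0.050; up to 0.15), Hsf2 with library totals (0.014) and limma (0.013), and Cryab with library totals (0.0099), limma (0.021) and without control replicate 1 (0.043; down to -0.22). Libraries that share a replicate number deviated together only weakly (Pearson's r of 0.0487 to 0.0546, each under 0.1), so the numbers were not taken to pair samples. With a replicate block 6 genes were higher and 8 lower, against 6 and 7 without it, the added call being Dnajc6 (edgeR adjusted p = 0.0459). Every library correlated best with its own number, which is a hint from the data and not the design. Low counts limit Hspb2, Hspb7, Hspb9 and Dnajb13, whose SE on the log2 scale ran from 0.38 to 0.59.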
